A study of Mus musculus with 1307 samples.

Results

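Mural cells that carried Vtn and Acta2 together were studied in the adult mouse heart. These intermediate cells were selected on 4 measured quantities per cell, in CPM (reads of a gene per 1000000 reads of the cell): Vtn of at least 500, Acta2 of at least 1000, Kcnj8 plus Abcc9 under 2500 and Dct under 1000. The rule kept 78 of the 1307 cells of the series. They are described beside 88 pericytes, chosen by Kcnj8 plus Abcc9 of at least 2500 CPM, and 215 smooth muscle cells, chosen by Myh11 of at least 1000 and Vtn under 500 CPM. No cell met 2 of these rules.

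Single cells from dissociated hearts had been sorted by fluorescence into 384-well plates and sequenced with Smart-Seq2, which reads full-length cDNA and has no molecular identifiers. Double-reporter mice (ACTA2GFP:CSPG4dsRED, named for fluorescent proteins under Acta2 and Cspg4) gave 49 of 368 cells in mouse 1, 21 of 245 in mouse 2 and 3 of 336 in mouse 3. C57BL/6 mice carry no reporter in their label, and mouse 1 gave 4 of 347 cells and mice 2 and 3 gave 0 of 4 and 0 of 1. An ACTA2GFP mouse gave 1 of 3 cells, and a CSPG4dsRED mouse gave 0 of 3. No treatment is named for any group. The labels give an age of 8 to 30 weeks for the animals. Male animals are named in the design text, but double-reporter mouse 3 and 1 ACTA2GFP cell are labelled female. Each large mouse had a plate of its own, so mouse and plate cannot be told apart. Within the plates of double-reporter mice 1 and 2, Gpx3 and other genes also changed along the order of the cells in the count table. Gpx3 was low in most cells listed first and high in many later ones, in pericytes too. Most pericytes were listed first and most intermediate cells later, so class and place in this order cannot be fully told apart. The part of this order in the values was not tested. The sort gate, and whether the reporters were used in it, are not given in the sources used here.

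Mural cells wrap the vessel wall. Pericytes sit on capillaries within the basement membrane and in the heart express the subunits of an ATP-sensitive potassium channel, Kcnj8 and Abcc9. Smooth muscle cells circle arteries and arterioles and contract through actin (Acta2) and smooth muscle myosin (Myh11). The cells between both, where arterioles pass into capillaries, share features of each. Vtn encodes vitronectin, a secreted adhesion protein made by pericytes.

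Because Vtn and Acta2 chose the cells, their levels are given as a description. Vtn ran from 538 CPM over a median of 2321 to 7543 CPM, and Acta2 from 1158 over 4226 to 12190 CPM. Kcnj8 plus Abcc9 ran from 0 over 396 to 2495 CPM, with 7 cells at 0 and 40 cells under 500 CPM. The potassium channel genes thus ran from 0 to close to the limit of the rule. Dct, a melanocyte enzyme, was at 0 in all 78 cells, and the Dct limit alone removed no cell. At the edges, the nearest cell inside had 538 CPM of Vtn and the nearest outside 499 CPM. For Acta2 these values were 1158 and 850 CPM, and for Kcnj8 plus Abcc9 2495 and 2606 CPM. The potassium channel limit removed 25 of the 103 cells that met the Vtn and Acta2 limits. Myh11, which the rule for these cells does not use, ran from 0 over 1209 to 4928 CPM, and 43 of the 78 cells reached 1000 CPM. The class borders are therefore cuts in a range: 30 of the 88 pericytes also reached 1000 CPM of Acta2.

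**Figure D1:**
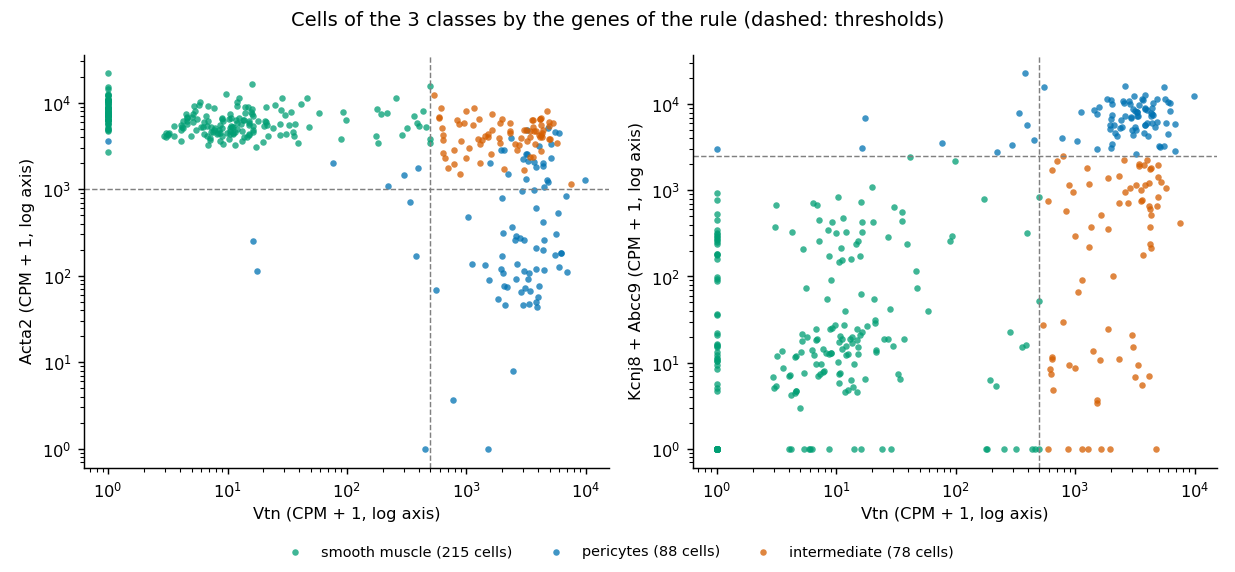
Each point is 1 cell of the 3 classes, by Vtn and Acta2 (left) and by Vtn and Kcnj8 plus Abcc9 (right), in CPM + 1 on log axes, with the thresholds dashed. The 78 intermediate cells lie from 538 to 7543 CPM of Vtn, and their potassium channel sum runs from 0 up to the limit of 2500 CPM.

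The cells made up 13.3% of double-reporter mouse 1 (exact 95% binomial interval 10.02 to 17.22), 8.57% of mouse 2 (5.38 to 12.8), 0.893% of mouse 3 (0.184 to 2.59) and 1.15% of C57BL/6 mouse 1 (0.315 to 2.92). The intervals cover counting error only, and the unstated gate can set these shares. Median depth was 261350 counts per intermediate cell, against 283878 per pericyte and 251799 per smooth muscle cell. A median of 4267 genes was detected, against 3740.5 and 4385. Within mice depth differed more: in double-reporter mouse 2 the median was 210142 counts in intermediate cells and 130061 in pericytes, and in mouse 3 it was 258244, against 160797 in pericytes and 143983.5 in smooth muscle.

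The label names Ccl11, Chrdl1, Colec11 and Angpt2 beside Vtn and Acta2. Colec11, a secreted collectin of the lectin complement pathway, stood at 1715 and 1443 CPM in the summed counts of double-reporter mice 1 and 2. It stood at 1748 and 1446 CPM in pericytes and at 66.2 and 24.9 CPM in smooth muscle. Colec11 thus lay near the pericyte level and above smooth muscle in both mice. Chrdl1, an antagonist of bone morphogenetic proteins, stood at 768 and 880 CPM, against 49.1 and 148 CPM in pericytes and 47.1 and 3.61 CPM in smooth muscle. Angpt2, the secreted ligand that modulates endothelial Tie2, stood at 585 and 303 CPM, against 124 and 4.47 CPM and against 255 and 131.6 CPM. In both mice these 2 genes were above both other classes. Chrdl1 also ran with the order of the cells in the count table. In mouse 1 the intermediate cells listed first had at most 5.26 CPM of it, and many later ones had far more. Single later pericytes and smooth muscle cells of that mouse reached 1926 and 1716 CPM, whereas others stayed near 0. The part of this order in the label markers was not tested. Ccl11, the chemokine eotaxin, stood at 403 and 327 CPM, against 64.7 and 294 CPM in pericytes and 4.08 and 0.44 CPM in smooth muscle. The Ccl11 sums of intermediate cells and pericytes therefore lay close in mouse 2 and apart in mouse 1. By cells they were less close in mouse 2, with 38.1% of intermediate cells and 17.65% of pericytes at 100 CPM or more. Those pericytes had 849, 656 and 1836 CPM and were all listed late in the count table. In the few cells of the other mice, Chrdl1 was at 247 CPM and Ccl11 at 451 CPM in double-reporter mouse 3 (3 cells), and both were at 0 in C57BL/6 mouse 1 (4 cells). The label markers had been proposed with these data in view, so no test is given for them.

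Not every cell had every marker. At 100 CPM or more, Colec11 was seen in 64 of the 78 cells, Angpt2 in 44, Chrdl1 in 40 and Ccl11 in 35. All 4 were seen in 18 cells, 3 in 22, 2 in 16, 1 in 13 and none in 9 cells. None of the 4 C57BL/6 cells had Ccl11 or Chrdl1. The label as a set of 6 markers thus held for 18 of 78 cells, and Vtn and Acta2 were the only markers common to all, by the rule.

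The markers were uneven along Vtn. Of the 59 cells with at least 1000 CPM of Vtn, 58 had Colec11, 53 had Gpx3 (a secreted glutathione peroxidase), 38 had Podn (podocan, a small leucine-rich proteoglycan), 38 had Chrdl1 and 33 had Ccl11. Of the 19 cells between 500 and 1000 CPM of Vtn, 6 had Colec11, 5 had Gpx3, 1 had Podn, 2 had Chrdl1 and 2 had Ccl11. Cspg4, the NG2 proteoglycan of mural cells, ran the other way, with 10 of the 59 cells and 16 of the 19 cells at 100 CPM or more. The contractile gene Tagln was in 58 of 59 and 19 of 19 cells, and the pericyte receptor Pdgfrb in 55 of 59 and 19 of 19. The order held in each mouse: Colec11 was in 39 of 40 cells against 4 of 9 in mouse 1, and in 16 of 16 against 0 of 5 in mouse 2. The cut at 1000 CPM was one of the listed alternatives to the rule, and the split was made after these values were seen. The split by Vtn also ran with the order of the cells in the count table. In mouse 1, early cells with 1901 and 1903 CPM of Vtn had Gpx3, Podn and Chrdl1 at 0 CPM. Later cells with 635 and 626 CPM of Vtn had Gpx3 at 2155 and 3291 CPM and Chrdl1 at 602 and 1946 CPM. The part of Vtn and of this order in the markers was not tested.

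**Figure D2:**
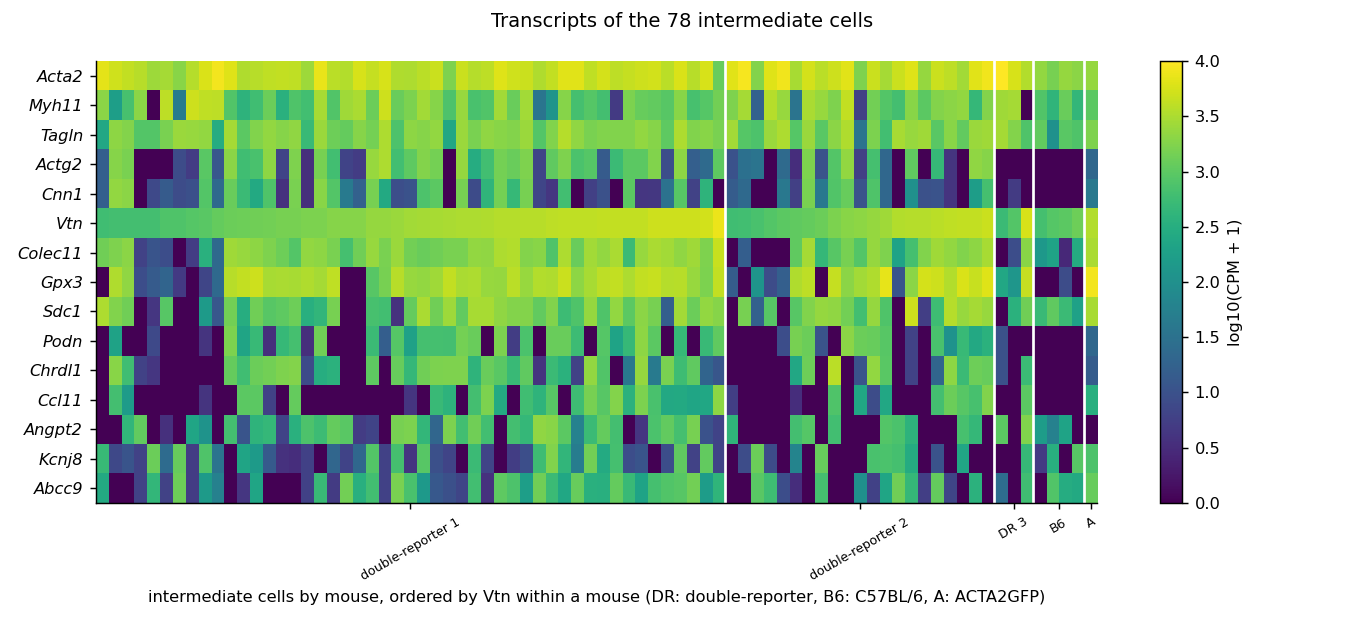
Each column is 1 of the 78 intermediate cells, grouped by mouse and ordered by Vtn within it, each row is a gene, and the colour is log10(CPM + 1). Acta2 and Tagln fill nearly all columns, whereas Colec11, Gpx3, Podn, Chrdl1 and Ccl11 are mostly dark at the low-Vtn side of both large mice.

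Counts were summed per mouse and class for the comparison between classes. Only double-reporter mice 1 and 2 held at least 5 cells of every class, which gave 6 sums and 2 residual degrees of freedom. With edgeR's quasi-likelihood test and the mouse as a block, 0 of 15228 genes that neither rule nor label used passed an adjusted p of 0.05 against pericytes (0% of the genes tested), and 0 passed against smooth muscle (0%). At an unadjusted p under 0.05 there were 1191 and 1185 genes, and the lowest adjusted p was 0.069 and 0.060. DESeq2 called 775 genes against pericytes (5.09%) and 593 against smooth muscle (3.89%), and limma on mean log values called 353 and 543. The tools thus differed widely in what they called from 2 mice, and the cause was not tested. Both comparisons share the sums of the intermediate cells. The values below are descriptions, and no gene is reported as changed.

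Genes to describe were taken by a rule of size, added after the test had made no call. It asked in both mice for at least 100 CPM and at least 25% of cells at 100 CPM in the higher class, and for a difference on the log2(CPM + 10) scale of 4-fold against one class, or of 2-fold against both. The genes of the rule and the label were left out. By this rule 24 of 1415 genes lay above both other classes (1.7%), and 5 of 901 lay below both (0.555%). Against pericytes, 34 of 1653 genes lay above (2.06%) and 17 below (1.03%). Against smooth muscle, 30 of 2032 lay above (1.48%) and 25 below (1.23%). Genes that vary with Vtn, Acta2, Myh11 or the potassium channel are tied to the choice of cells, so these counts are not independent of it. The order of the cells in the count table also ran with class, and its part in these counts was not tested.

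Of the genes above both classes, Podn stood at 481 and 605 CPM in mice 1 and 2, against 22.9 and 0.81 CPM in pericytes and 33.7 and 4.71 CPM in smooth muscle. Its log2 difference was 6.74 ± 1.29 (SE) from pericytes and 5.88 ± 1.22 from smooth muscle in the edgeR fit (adjusted p 0.255 and 0.336). The Podn sums were thus above both classes in both mice, but single cells overlapped. Podn was seen in 39 of 78 cells and stood at 1.44 CPM in double-reporter mouse 3 and 0 in C57BL/6 mouse 1. It also ran with the order of the cells in the count table. Intermediate cells listed first had at most 6.56 CPM in mouse 1 and 9.74 CPM in mouse 2. A later pericyte and a later smooth muscle cell of mouse 1 had 522 and 1199 CPM, though most had little. The part of this order in Podn was not tested.

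Sdc1, the heparan sulfate proteoglycan syndecan-1, stood at 1283 and 1641 CPM, against 229 and 165 CPM in pericytes and 140 and 194 CPM in smooth muscle. It was among the most widely seen of these genes, in 63 of 78 cells, and was above both classes in the other 2 mice too, at 770 CPM against 520 and 332 CPM in double-reporter mouse 3 and at 579 CPM against 386 and 0.62 CPM in C57BL/6 mouse 1. Its log2 difference was 2.94 ± 0.33 and 3.17 ± 0.33 (edgeR adjusted p 0.113 and 0.112).

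Col8a1, a short-chain collagen of vessel walls, stood at 202 and 399 CPM, against 16.4 and 20.3 CPM in pericytes and 21.7 and 31.96 CPM in smooth muscle. In the smaller samples it stood at 230 and 209 CPM in intermediate cells and at most at 17.3 CPM in the others, so all 4 mice showed the same order. Sytl2, an effector of Rab27 in vesicle transport, stood at 233 and 182 CPM, against 0.22 and 0 CPM in pericytes and 20.3 and 24 CPM in smooth muscle. It was at 0 in the intermediate cells of both smaller samples.

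Tmem119, a transmembrane protein known from bone and microglia, stood at 734 and 779 CPM, against 65.1 and 178 CPM and against 102 and 0.88 CPM. Prrx1, a homeobox factor of mesenchymal cells, stood at 665 and 610 CPM, against 208 and 139 CPM and against lower levels in smooth muscle too (mean 139.8 CPM), and it was seen in 58 cells. Gpx3 stood at 2604 and 3221 CPM, against 459 and 1591 CPM and against 379 and 122 CPM. Gpx3 was thus the most abundant of the 24 genes. Its class difference ran with the order of the cells in the count table, as given above. In mouse 2, later pericytes had 3660, 2530, 5267, 169 and 6105 CPM of Gpx3. Early intermediate cells of that mouse had 116, 7.52, 10.1, 15.5, 0, 0 and 13.6 CPM. Whether Gpx3 differs between classes at the same place in this order was not tested. None of these 3 genes was above both classes in C57BL/6 mouse 1: Tmem119 was at 0 in every class, Prrx1 stood at 6.19 CPM in intermediate cells against 45.2 and 140 CPM, and Gpx3 at 2.06 CPM against 230.4 and 0 CPM.

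The other genes above both classes were Amotl2, an angiomotin-like scaffold, Aldh1a1, a retinaldehyde dehydrogenase, Srpx, Pxdn (peroxidasin of the basement membrane), Galnt16, Pltp, the chemokine Cxcl1, the fibril-associated collagen Col14a1, Tmem176a and Tmem176b, the interleukin-1 receptor Il1r1, the annexins Anxa1 and Anxa3, the metal transporter Slc11a1, the glutathione transferase Gstt1, the transcription factor Zeb2 and the vasodilator peptide Adm. Amotl2 stood at 421 and 516 CPM, and Aldh1a1 at 333 and 370 CPM, against at most 97.6 CPM in the other sums of these mice. The order turned in C57BL/6 mouse 1, with Aldh1a1 at 1.03 CPM in intermediate cells and 322.7 CPM in pericytes, and Amotl2 at 71.7 CPM against 90.5 CPM in pericytes and 231.9 CPM in smooth muscle. Anxa1 stood at 1139 and 1013 CPM, against 547 and 476 CPM in pericytes and 333 and 234 CPM in smooth muscle. With sums of at least 3 cells and a mouse left out, the difference from pericytes changed direction in at least 1 setting for Col14a1, Cxcl1, Galnt16, Gstt1, Pxdn, Srpx, Tmem176a, Tmem176b and Gpx3. For Gpx3 it ran from -1.14 to 2.48 on the log2 scale. These genes were patchy over cells: Anxa1 was seen in 66 of 78 cells and Adm in 22.

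**Figure D3:**
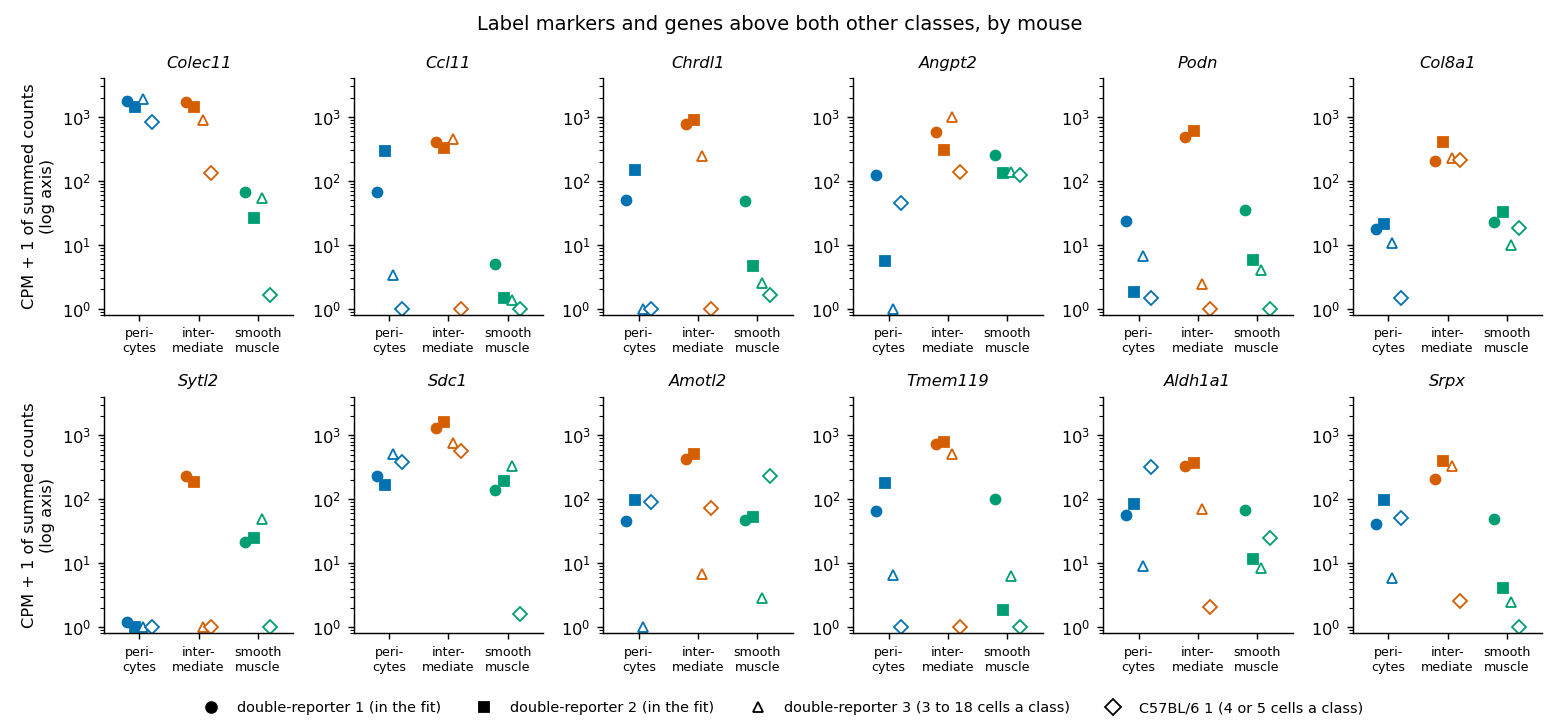
Each point is the CPM + 1 (log axis) of the summed counts of 1 mouse in 1 class, for the 4 label markers and the 8 leading genes above both classes. Filled points are the mice of the fit. Podn and Sytl2 are near 0 in the intermediate cells of both smaller samples, whereas Sdc1 and Col8a1 are above the other classes in all 4 mice.

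Below both classes lay Odf3l1, Ldhb (a lactate dehydrogenase subunit), S1pr3 (a sphingosine 1-phosphate receptor), Sgcb (a sarcoglycan of the muscle membrane) and Slc9a3r1 (a scaffold of membrane transporters). S1pr3 stood at 182 and 249 CPM, against 1402 and 1127 CPM in pericytes and 491 and 924 CPM in smooth muscle. Ldhb stood at 93.5 and 52.0 CPM, against 329 and 499 CPM and against 329 and 362 CPM. In both mice the intermediate cells were the lowest class. In C57BL/6 mouse 1 this order did not hold, with S1pr3 at 931 CPM in intermediate cells and 299 CPM in smooth muscle. Cspg4, one of the 2 reporter genes of these mice, did not pass the rule and stood at 197 and 302 CPM, against 1242 and 798 CPM in pericytes and 379 and 594 CPM in smooth muscle (edgeR adjusted p 0.265 and 0.628). It was seen in 26 of 78 intermediate cells, 73 of 88 pericytes and 187 of 215 smooth muscle cells.

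Most contractile genes of the intermediate cells stood above pericytes and below smooth muscle in level. The rules chose intermediate cells by Acta2 and smooth muscle by Myh11. At 1000 CPM, Acta2 was reached by 30 of 88 pericytes and Myh11 by 43 of 78 intermediate cells. Contractile genes that vary with these 2 are tied to the choice of cells, so their place is not independent of it. Of 29 listed contractile genes that were tested, 25 had a positive log2 difference from pericytes and 6 had a positive one from smooth muscle. Over all 15228 genes tested, 8111 and 6754 were positive. Of the 29 genes, 0 passed the edgeR test either way. The median log2 difference was 1.42 from pericytes and -0.52 from smooth muscle, against 0.094 and -0.14 over all genes tested. By size, 6 of the 24 genes that could pass lay above pericytes, namely Cnn1, Tagln, Lmod1, Synpo2, Actg2 and Csrp1. Below smooth muscle lay 4 of 29, namely Ldb3, Sorbs2, Pln and Itga8. Over all genes that could pass, these shares were 2.06% above pericytes and 1.23% below smooth muscle.

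Cnn1, the actin-binding calponin, stood at 533 and 329 CPM, against 11.4 and 5.70 CPM in pericytes and 1316 and 1525 CPM in smooth muscle. Tagln, the actin-bundling transgelin, stood at 1767 and 1861 CPM, against 213 and 369 CPM and against 2195 and 3015 CPM. Actg2, the gamma actin of smooth muscle, stood at 926 and 579 CPM, against 9.34 and 65.9 CPM and against 660 and 839 CPM. Among these, Cnn1 stood farthest below the smooth muscle level, and the Actg2 values of intermediate cells and smooth muscle overlapped. In the 3 and 4 cells of double-reporter mouse 3 and C57BL/6 mouse 1, Actg2 was at 0 and Cnn1 at 1.44 and 0 CPM. Their log2 differences from pericytes were 5.71 ± 0.41, 2.77 ± 0.24 and 4.81 ± 0.92 (SE, edgeR adjusted p 0.069, 0.069 and 0.255). Cnn1 was uneven over cells, at 100 CPM or more in 30 of 78, whereas Tagln was so in 77 and Myl9, the regulatory myosin light chain, in all 78.

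The place of other contractile genes varied. Sorbs2, an adaptor of adhesion sites, stood at 201 and 174 CPM, against 55.2 and 6.51 CPM in pericytes and 1272 and 2098 CPM in smooth muscle. In double-reporter mouse 3 Sorbs2 was not below smooth muscle, at 1258 against 1188 CPM. Pln, the regulator of the calcium pump of the sarcoplasmic reticulum, stood at 87.0 and 115 CPM, against 75.4 and 70.8 CPM and against 550 and 751 CPM. Smtn, the actin-binding smoothelin of contractile smooth muscle, stood at 356 and 295 CPM, against 705 and 222 CPM and against 1442 and 1784 CPM. Mylk, the myosin light chain kinase, stood at 1000 and 1125 CPM, against 479 and 341 CPM and against 2197 and 2813 CPM. With 0 at pericytes and 1 at smooth muscle on the log2(CPM + 1) scale, Pln was at 0.071 and 0.20, Sorbs2 at 0.41 and 0.56 and Mylk at 0.48 and 0.57. Myocd, the coactivator of serum response factor on contractile genes, stood at 205 and 196 CPM, against 5.82 and 20.3 CPM in pericytes and 538 and 434 CPM in smooth muscle, and it was seen in 29 of 78 cells.

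Serum response factor binds the CArG box. The box was searched on both strands in the 250 bases before each gene start, in RefSeq promoters (GRCm38.p6). It was found in 3 of the 25 contractile genes with a promoter in that set (12%, Acta2 included in the search), against 439 of 27025 genes (1.62%). The 3 stretches are shown with the box in capitals, because Myl9 was seen in all 78 cells, Ldb3 was below smooth muscle by the size rule, and Vcl, which links actin to adhesion sites, is the other gene with a match.
Myl9, chr2:156775288-156775327, plus strand: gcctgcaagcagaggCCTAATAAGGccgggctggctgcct
Vcl, chr14:20929156-20929195, plus strand: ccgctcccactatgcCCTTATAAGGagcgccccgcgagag
Ldb3, chr14:34588692-34588731, minus strand: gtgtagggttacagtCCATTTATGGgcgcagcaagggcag
Myl9 stood at 2823 and 3244 CPM in intermediate cells, against 982 and 970 CPM in pericytes and 3242 and 5115 CPM in smooth muscle. Ldb3, a protein of the muscle Z-line, stood at 45.6 and 75.6 CPM, against 3.19 and 0.41 CPM and against 285 and 341 CPM. A gene near the smooth muscle level and one far below it thus both held a box in this window. A match is a description of the letters and not a measured binding site.

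Other genes above pericytes by size were led by Igfbp3, a binding protein of insulin-like growth factors, at 534 and 455 CPM against 10.02 and 2.85 CPM. Eln, the elastin of elastic fibres, stood at 529 and 900 CPM against 16.3 and 44.7 CPM, and Ramp1, a co-receptor for the peptide CGRP, at 254 and 146 CPM against 4.48 and 3.25 CPM. In smooth muscle Eln stood at 525 and 559 CPM and Ramp1 at 265 and 213 CPM, so for these genes the intermediate cells of both mice were near smooth muscle. The smaller samples differed: Igfbp3 stood at 17.2 against 20.1 CPM in pericytes in double-reporter mouse 3 and at 219.3 against 264.4 CPM in C57BL/6 mouse 1. In that last mouse Ramp1 was at 0 and Eln at 6.71 CPM in intermediate cells. Mrgprf, an orphan receptor, stood at 334 and 265 CPM, against 28.4 and 6.92 CPM in pericytes and 297 and 208 CPM in smooth muscle.

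Pericyte genes were held in part. Rgs5, which shortens G protein signals, stood at 5259 and 7737 CPM, against 6406 and 10520 CPM in pericytes and 1749 and 3070 CPM in smooth muscle. Pdgfrb, the receptor through which vessels recruit mural cells, stood at 1548 and 2038 CPM, against 3060 and 3654 CPM and against 583 and 998 CPM. Notch3, the mural Notch receptor, stood at 933 and 1252 CPM, against 1101 and 1324 CPM and against 429 and 609 CPM. All 3 lay between the other classes in both mice. In double-reporter mouse 3 Rgs5 and Notch3 were lowest in the intermediate cells, at 5122 CPM against 6884 and 6276 CPM and at 617 CPM against 1051 and 1266 CPM. The metalloreductase Steap4 stood at 938 and 901 CPM, against 3017 and 3083 CPM in pericytes and 88.1 and 116 CPM in smooth muscle, and at 998 and 934 CPM in the intermediate cells of the smaller samples. Steap4 was thus the same in all 4 mice to within about 100 CPM. Of the 26 listed pericyte-associated genes, 3 had a positive log2 difference from pericytes and 18 from smooth muscle, with medians of -0.83 and 0.55. Over all 15228 genes tested, 8111 and 6754 were positive. Of the list, 0 genes passed the edgeR test.

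The genes below pericytes by size included receptors. P2ry14, the receptor for UDP-sugars, stood at 7.13 and 13.1 CPM, against 538 and 331 CPM in pericytes and 16.8 and 36.4 CPM in smooth muscle. Ednrb, the endothelin B receptor, stood at 36.5 and 13.3 CPM, against 260 and 391 CPM and against 31.8 and 7.80 CPM. For both receptors the intermediate cells stood far nearer to smooth muscle than to pericytes. Art3, an ADP-ribosyltransferase family member, stood at 168 and 42.5 CPM, against 1292 and 951 CPM and against 45.1 and 43.5 CPM. The tetraspanins Tspan13 and Tspan15, the phosphatase Ptprk, the carboxypeptidase Cpm and the pseudokinase Trib2 completed the 8 leading genes, each at 52.7 CPM or less in the intermediate sums of both mice. In C57BL/6 mouse 1 Tspan13 stood at 526 CPM in intermediate cells, against 1044 CPM in pericytes and 508 CPM in smooth muscle. P2ry14 was seen in 3 of 78 cells and Tspan15 in 4.

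Against smooth muscle, 1 of 12 basement membrane genes that could pass lay above by size, beside 1.48% of all genes that could pass. The basement membrane gene was Nid1, which encodes the linker nidogen. It stood at 450 and 568 CPM, against 53.2 and 35.5 CPM in smooth muscle and 658 and 614 CPM in pericytes. Col6a1, a chain of microfibrillar collagen, stood at 1096 and 1697 CPM, against 230 and 110 CPM and against 1507 and 1595 CPM. Il34, a ligand of the macrophage receptor Csf1r, stood at 275 and 375 CPM, against 53.2 and 33.9 CPM and against 494 and 451 CPM. For these genes the intermediate cells of both mice stood near pericytes. Nid1 was low in the smaller samples, at 17.2 CPM against 895.5 CPM in pericytes in double-reporter mouse 3 and at 0 against 246.7 CPM in C57BL/6 mouse 1. Ifitm1, Rem1 (a small GTPase) and Oaf showed the same order, with smooth muscle at 57.7 CPM or less in both mice.

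Of 31 listed interferon and antigen presentation genes, 29 had a positive log2 difference from smooth muscle, with a median of 1.39 against -0.14 over all genes, and 15 had a positive one from pericytes, with a median of -0.030. By size, 3 of the 13 that could pass the size rule lay above smooth muscle, namely Psmb8, Ifitm1 and Ly6e, and 0 passed the edgeR test. Over all genes, 1.48% lay above smooth muscle by size. Of all 15228 genes tested, 6754 had a positive difference from smooth muscle and 8111 from pericytes. B2m, the light chain of class I molecules, stood at 1144 and 1062 CPM, against 562 and 446 CPM in smooth muscle and 1222 and 1535 CPM in pericytes. In C57BL/6 mouse 1 the classes lay closer, with B2m at 844 CPM in intermediate cells and 943 CPM in smooth muscle.

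The genes below smooth muscle by size were led by Olfml2a, at 17.9 and 1.93 CPM against 345 and 615 CPM, and by the small heat shock protein Hspb6, at 45.6 and 20.8 CPM against 693 and 576 CPM. Itih4, an inhibitor heavy chain of plasma, stood at 105 and 76.9 CPM against 1368 and 1848 CPM, and Entpd1, the ectonucleotidase CD39, at 51.8 and 44.5 CPM against 580 and 508 CPM. Clu, the secreted chaperone clusterin, stood at 138 and 113 CPM against 1047 and 1594 CPM. In pericytes of both mice these 5 genes stood at 71.6 CPM or less. In C57BL/6 mouse 1 Clu and Entpd1 went against this order, at 1367 and 517.5 CPM in 4 intermediate cells and 898 and 425 CPM in smooth muscle. In double-reporter mouse 3 Olfml2a was close to smooth muscle, at 591.6 against 655 CPM. Cd59a, Kcnh2 (a potassium channel), Wfdc1 and Susd5 completed the 8 leading genes. Tnnt2, cardiac troponin T, stood at 59.8 and 37.8 CPM against 462 and 274 CPM in smooth muscle.

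Among the other lists, immediate early genes had a median log2 difference of 1.22 from pericytes (23 of 26 positive) and -0.052 from smooth muscle (11 of 26 positive). Over all 15228 genes tested, 8111 and 6754 were positive. Fos, a subunit of the AP-1 factor, stood at 2046 and 1960 CPM, against 659 and 488 CPM in pericytes and 1890 and 2409 CPM in smooth muscle. Chemokine and cytokine genes had medians of 1.02 and 1.72 over 20 genes. Collagen and proteoglycan genes had medians of 0.60 and 0.96 over 20 genes, with Col3a1 at 1661 and 3304 CPM, against 1092 and 1897 CPM and against 922 and 895 CPM. Basement membrane genes had medians of -0.61 and 0.095 over 22 genes, and Col4a1 stood at 467 and 887 CPM, against 1194 and 1338 CPM and against 318 and 326 CPM. Notch genes (medians -0.090 and 0.17), transcription factors (0.0059 and 0.099) and BMP and TGF-beta genes (0.22 and -0.013) were near all genes. Ion channel and calcium genes had medians of 0.59 and -0.73, vasoactive receptors of -0.35 and -0.049, and elastic fibre genes of 0.96 and -0.64. Lectin and complement genes had medians of 0.63 and 0.39, angiogenic signalling of 1.35 and 0.59, and oxidative phosphorylation of 0.13 and -0.47. Cell cycle genes had medians of -2.78 and -0.55 over 10 genes, of which 1 and 4 were positive. They had too few counts for the size rule (0 of 10). Pcna, the 1 gene with a positive difference from pericytes, stood at 85.7 and 82.3 CPM. It stood at 121 and 47.6 CPM in pericytes and at 53.1 and 43.3 CPM in smooth muscle. No list had a gene past the edgeR test.

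**Figure D4:**
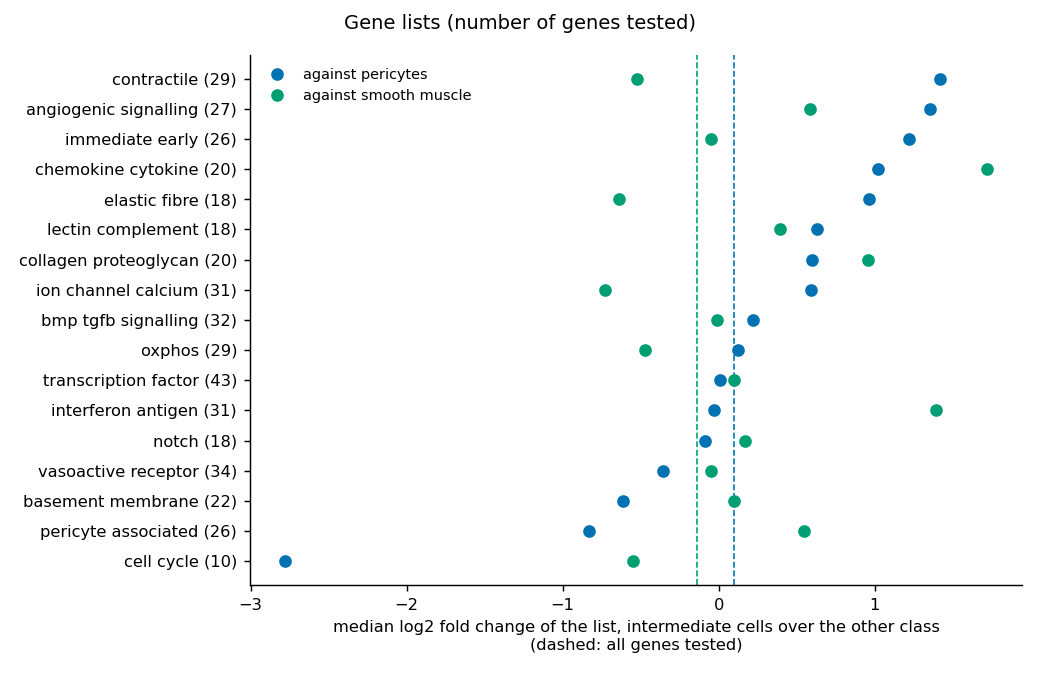
Each row is a gene list with its number of genes tested, and the points are the median log2 differences of intermediate cells from pericytes and from smooth muscle, with all genes dashed. The contractile list stands at 1.42 and -0.52, and the interferon list at -0.030 and 1.39.

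The place of the intermediate cells between both classes was measured over genes that differed at least 4-fold between pericytes and smooth muscle in both mice and reached 50 CPM in the higher class, with 0 set at pericytes and 1 at smooth muscle on the log2(CPM + 1) scale. Over 198 smooth muscle genes the median place was 0.63 in mouse 1 and 0.65 in mouse 2. Over 157 pericyte genes it was 0.40 and 0.36. The genes were chosen as high in 1 class, and on this scale a sum that mixes both kinds of cell also stands nearer to that class, so the side of these medians is no result. Between the classes lay 165 and 154 of the smooth muscle genes and 131 and 117 of the pericyte genes. Since the value is a sum over cells, it does not say whether single cells stand in the middle or differ among themselves.

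**Figure D5:**
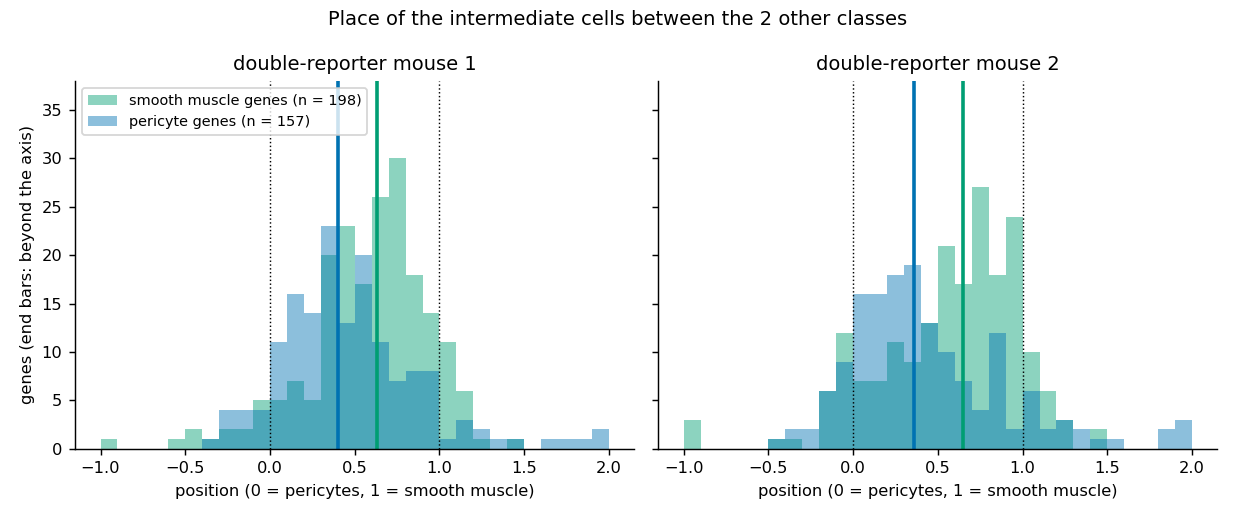
Each histogram counts genes by the place of the intermediate cells between pericytes (0) and smooth muscle (1) in 1 mouse, with medians as solid lines. The medians are 0.63 and 0.65 for smooth muscle genes and 0.40 and 0.36 for pericyte genes, and the end bars hold values beyond the axis.

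Genes that varied with Acta2 and Vtn among the cells are given as Spearman correlations over 49 cells of mouse 1 and 21 cells of mouse 2. The cells of each mouse come from the same plate, along which Gpx3 and other genes changed as given above. With Acta2 went Myl9 (0.79 and 0.82), Crip1 (0.71 and 0.78) and Tpm2, a tropomyosin (0.69 and 0.71). With Vtn went the matrix protein Sparc (0.66 and 0.60), Col6a1 (0.59 and 0.60) and Colec11 (0.54 and 0.73). The label marker Ccl11, which ranked lower, had 0.50 and 0.60. Against Vtn went Tm4sf1 (-0.54 and -0.65) and Cspg4 (-0.38 and -0.61). Vtn and Acta2 were taken as axes because they chose the cells, which narrows their range, and the genes were picked as extremes among 1644, so the values are descriptions of these cells only.

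Splitting the cells by Myh11 at 1000 CPM left Tagln and Rgs5 on either side, whereas Actg2 was scarce in the mouse 2 cells with less Myh11. Of those 7 cells, 6 had Tagln, 6 had Rgs5 and 1 had Actg2 at 100 CPM or more. In mouse 1, Actg2 had a median of 1112 CPM in 26 cells with more Myh11 and 539 CPM in 23 cells with less, and Rgs5 had 6239 and 3860 CPM. Ccl11 was at 100 CPM or more in 8 of the 26 and 17 of the 23 cells. In mouse 2, Actg2 had medians of 253 and 4.76 CPM and Rgs5 9954 and 2327 CPM in 14 and 7 cells, the same order as in mouse 1. Ccl11 was at 100 CPM or more in 5 of 14 and 3 of 7 cells there.

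Markers of other cell types were counted in the same cells. Of the 10 fibroblast markers, all were measured, and their summed level ran from 210 over a median of 6496 to 36400 CPM in the intermediate cells, against medians of 3003 CPM in pericytes and 2986 CPM in smooth muscle. The leading marker was Gsn, the actin-severing gelsolin, at 2858 and 3684 CPM, against 684 and 2388 CPM in pericytes and 1998 and 1808 CPM in smooth muscle. Dpt, a matrix protein of fibroblasts, stood at 376 and 377 CPM, against 111 and 24.4 CPM and against 254 and 14.6 CPM. Pdgfra, the defining receptor of fibroblasts, was at 0.63 and 3.22 CPM and reached 100 CPM in 0 of the 78 cells, which allows a share of up to 3.85%. By mouse, the median sums in intermediate cells, pericytes and smooth muscle were 6955, 2655 and 3077 CPM in double-reporter mouse 1 and 7249, 4428 and 2722 CPM in mouse 2. In mouse 3 they were 3865, 4595 and 3731 CPM, so the intermediate cells were not highest there. In the mice of the fit the summed markers were thus highest in the intermediate cells, and their part in the genes above both classes was not tested. Gene by gene the difference was smaller. The 10 markers had median log2 differences of 0.23 from pericytes and 0.80 from smooth muscle, against 0.094 and -0.14 over all genes tested. Of the 10, 7 and 8 were positive, against 8111 and 6754 of all 15228 genes. By size, 0 lay above either class.

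Endothelial markers summed to more than 500 CPM in 16 of 78 intermediate cells, 10 of 88 pericytes and 12 of 215 smooth muscle cells, with medians of 16.1, 8.48 and 5.90 CPM. In double-reporter mice 1 and 2 this came to 10 of 49 and 2 of 21 intermediate cells. The only endothelial marker over 100 CPM in the intermediate sums was Flt1, the VEGF receptor 1, at 156 and 114 CPM, against 11.2 and 18.3 CPM in pericytes and 20.8 and 8.69 CPM in smooth muscle. Cdh5 was at 0.070 and 0.21 CPM and Kdr at 0.35 and 0 CPM. Flt1 therefore stood apart from the other endothelial markers in the intermediate sums of double-reporter mice 1 and 2.

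In C57BL/6 mouse 1, all 4 intermediate cells carried 2753 to 4429 CPM of endothelial markers, and so did its 5 pericytes (2430 to 6091 CPM) and 5 smooth muscle cells (539 to 4242 CPM). Every value of that mouse is thus from cells with endothelial transcripts, and the part of those transcripts in the values was not tested. Cardiomyocyte markers passed 500 CPM in 17 of 78, 16 of 88 and 74 of 215 cells. Without the 31 intermediate cells, and cells of the other classes, that held over 500 CPM of endothelial, Schwann, macrophage, lymphocyte, mesothelial or cardiomyocyte markers, 19 genes lay above both classes, and 14 of them were among the 24.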

How the data were processed

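The deposited values were whole-number counts of reads per gene and cell, made by the authors, for 46517 genes and 1307 cells, and all 1307 cell columns were matched to a sample by name. According to the submitters' processing notes, the tools included featureCounts, Subread, Bowtie2, Bowtie and bcl2fastq, on GRCm38 (mm10). Versions, annotation, strand setting and removal of duplicate reads are not given in the sources used here. A symbol was found for 46005 genes, and the 118 that share one were kept apart by their identifier. No pair of cells held identical values. Cells held 50476 to 811982 counts.

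CPM is 1000000 times a count over the cell's total. For each class in each mouse with 5 or more cells, counts were added up and tested with edgeR 4.0.16 (R 4.3.3, quasi-likelihood, TMM, filterByExpr, Benjamini-Hochberg at 0.05 over all genes tested) after the script had been tested on simulated data. Each animal supplied every class, so the mouse entered as a block. The deviations of same-mouse sums from their class means correlated by 0.063 to 0.077 (15237 genes). P-values rest on 2 mice, each on a plate of its own, and measure only how far the class differences vary between them. The mouse as a block does not remove a change among the cells within a plate. Alternatives used DESeq2 1.42.0, limma 3.58.1, RLE scaling, other filters and other class limits. Doublets were not called. Intervals of shares are exact (Clopper-Pearson, 95%), and a count of 0 allows a share of up to 3 counts; both cover counting error only, since reads have no molecular identifiers.

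The members, gene lists and tests were chosen with earlier results of these data known. The planned rule named genes called by the test. As nothing was called, the text names the rule and label genes, the genes past a size rule added after the test was seen, and listed genes among the highest of their list. Cspg4, Mylk, Smtn, Pcna and the single markers of other cell types were named after their values were seen. A result on 1 further gene is not reported here.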

Additional observations from a re-analysis of the deposited data

Results flagged for a closer look

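Intermediate cells were also present in an animal that entered no test, since it held fewer than 5 of them: C57BL/6 mouse 1 had 4 among 347 cells, a share of 1.15%. They are listed because they lie outside the comparison, no control sample exists for this count, and a count of 0 in that mouse would allow a share of up to 0.865%, which any count of 4 exceeds. These 4 cells carried 656 to 1297 CPM of Vtn and 1485 to 2293 CPM of Acta2. None of them reached 100 CPM of Ccl11 or Chrdl1, and all 4 carried 2753 CPM or more of endothelial markers, whose part in their values was not tested.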

How the results depend on the processing

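The number of called genes depended on the tool and settings. Against pericytes edgeR called 0 genes, DESeq2 775, limma on the mean of log2(CPM + 1) over cells 353, and edgeR with no low-count filter 22. Against smooth muscle these were 0, 593, 543 and 21. Without the replicate block, which ignores that the classes share mice, edgeR called 4 and 5. With Kcnj8 plus Abcc9 under 500 CPM it called 10 and 1, with Vtn of at least 1000 and Acta2 of at least 2000 CPM 8 and 3, with pericytes under 1000 CPM of Acta2 9 against pericytes, and with intermediate cells under 1000 CPM of Myh11 9 against smooth muscle. With a mouse left out of the sums of at least 3 cells, 0 to 4 and 0 to 7 genes were called. Leaving out 1 of the 2 mice of the main sums leaves no residual degrees of freedom, so it gave values with no test. The causes of these shifts were not tested.

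The size rule moved with the cells chosen. Under the stricter Vtn and Acta2 limits 52 genes lay below smooth muscle, 42 above both classes and 14 below both. With Myh11 under 1000 CPM, 52 lay above and 76 below smooth muscle, 48 above both and 21 below both. With pericytes under 1000 CPM of Acta2, 58 lay above pericytes, and with deep cells (at least 100000 counts and 2000 genes) 11 lay below.

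With at least 3 cells per sum, the log2 difference from pericytes turned to -0.25 for Pxdn and -0.19 for Tmem176a. With a mouse left out, it ran from -0.49 to 2.40 for Col14a1, -0.016 to 3.09 for Cxcl1, -1.46 to 3.05 for Galnt16, -1.14 to 2.48 for Gpx3, -0.055 to 2.13 for Gstt1, -3.13 to 4.20 for Pxdn, -0.15 to 3.58 for Srpx, -1.48 to 3.04 for Tmem176a and -0.47 to 1.94 for Tmem176b. Against smooth muscle it ran from -0.57 to 1.42 for Col4a1, -0.048 to 1.32 for Gstt1, -0.16 to 1.10 for Notch3, -1.07 to 2.18 for Pxdn and -1.06 to 3.17 for Sytl2. The cause was not tested. Of 188 differences of named genes that were recomputed, further ones, all under 1 on the log2 scale, changed sign: 30 with a mouse left out and 26 under other settings. Sums of 17 to 123 cells from 2 mice limit all of these values.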
